A study of Drosophila melanogaster with 6 samples.

Results

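The cytosolic ribosomal protein genes were the 93 genes, of 17807 counted, whose FlyBase symbol starts with RpL or RpS followed by a digit or P, together with sta, the gene for the small-subunit protein SA. They comprised 39 genes of the small (40S) subunit and 54 of the large (60S) subunit, and genes of the mitochondrial ribosome (mRp) were not among them. Their RNA was measured in heads of adult male Drosophila melanogaster, 10 pooled heads a library, with 3 pum kd libraries and 3 control libraries. The pum kd flies carried UAS-pumRNAi (TRiP.HMS01564 at attP2) and the control flies UAS-mCherryRNAi (VALIUM20-mCherry.RNAi at attP2). All flies shared a background labelled w1118/y1,sc*,v1 with sev21, the driver esg-Gal4 with a UAS-2xYFP reporter, the repressor Su(H)GBE-Gal80, which blocks the driver in enteroblasts, and the temperature-sensitive tub-Gal80ts, and were raised at 18 °C and shifted to 29 °C to switch transgenes on. After a sleep assay the flies of each genotype were pooled and given 30 min at 29 °C to recover from the transfer before freezing. The driver is active in intestinal stem cells and in the corpus allatum, an endocrine gland, and may also be active in a small subset of brain neurons, the extent of which was not determined under these conditions. The comparison asks whether RNA abundance in heads differs after this peripheral knockdown.

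Ribosomal proteins and ribosomal RNA build the ribosome, and most of the proteins are present in a single copy in each particle. Their genes are among the most highly transcribed of any cell, are regulated together through the target of rapamycin (TOR) pathway, and in the fly start at a polypyrimidine (TCT) initiator in place of the usual one. Loss of a single copy of many of them gives the Minute phenotype of delayed development and short bristles. Several have a second gene whose use is largely restricted to the germline.

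Gene counts summed to between 33258537 and 39377789 a library, and values below are CPM, that is, counts divided by the library total after an adjustment by TMM, which assumes most genes do not differ between libraries. The targeted gene, pum, had 176, 192 and 228 CPM in pum kd heads, against 346, 168 and 270 CPM in control heads, and these values overlapped. Markers of neurons, glia, photoreceptors and muscle were present in every library, whereas 5 of 15 testis markers and 6 of 8 midgut markers had no count in any library. Markers of the antenna summed to 62.1 and 21.3 CPM in pum kd replicates 1 and 2, and to between 2.34 and 3.72 CPM in the other 4 libraries. P-values measure the spread between these libraries only. The authors call the replicates biological, and flies of each genotype were pooled before heads were taken. The sources do not say whether the replicates came from separate crosses or cultures.

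The ribosomal protein genes took a large share of the RNA of the head. They held 11.5%, 11.5% and 7.95% of the gene counts in pum kd replicates 1, 2 and 3, against 7.91%, 10.99% and 8.96% in control replicates 1, 2 and 3. The share averaged 10.3% ± 2.04 in pum kd heads and 9.29% ± 1.57 in control heads (SD, n = 3 each), so the groups differed by less than the spread within either. The highest library exceeded the lowest by 1.46-fold, with pum kd replicates 1 and 2 above every control library and pum kd replicate 3 below control replicates 2 and 3. The ratio of 40S to 60S counts moved much less, at 0.679, 0.646 and 0.672 in pum kd heads and 0.646, 0.682 and 0.667 in control heads, a 1.06-fold range.

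Of the 93 genes, 89 had at least 1 count and 81 had at least 5000 counts in every library, which limits the counting error (1 SD) of a value to 1.22% or less. RpL7-like, RpL37-2, RpL22-like and RpS28-like had no count in any library. To compare genes, CPM was divided by the length of the exons in kb, with the caveat that all annotated exons enter this length whether or not the head uses them. On this scale 33 of the 50 highest genes, and 69 of the 100 highest, were ribosomal protein genes, out of the 10642 tested genes with an annotated exon length (54 others had none and were not ranked). Among the 81 genes with the most counts, the mean level over the 6 libraries had a median of 1255 CPM per kb, quartiles of 1004 and 1497, and a 6.53-fold range from RpL24-like at 510 to RpL41 at 3330. The order of these levels was nearly the same in every library, with Spearman correlations across the 81 genes of 0.919 to 0.99 for the 15 pairs of libraries (genes are not independent replicates).

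**Figure D1:**
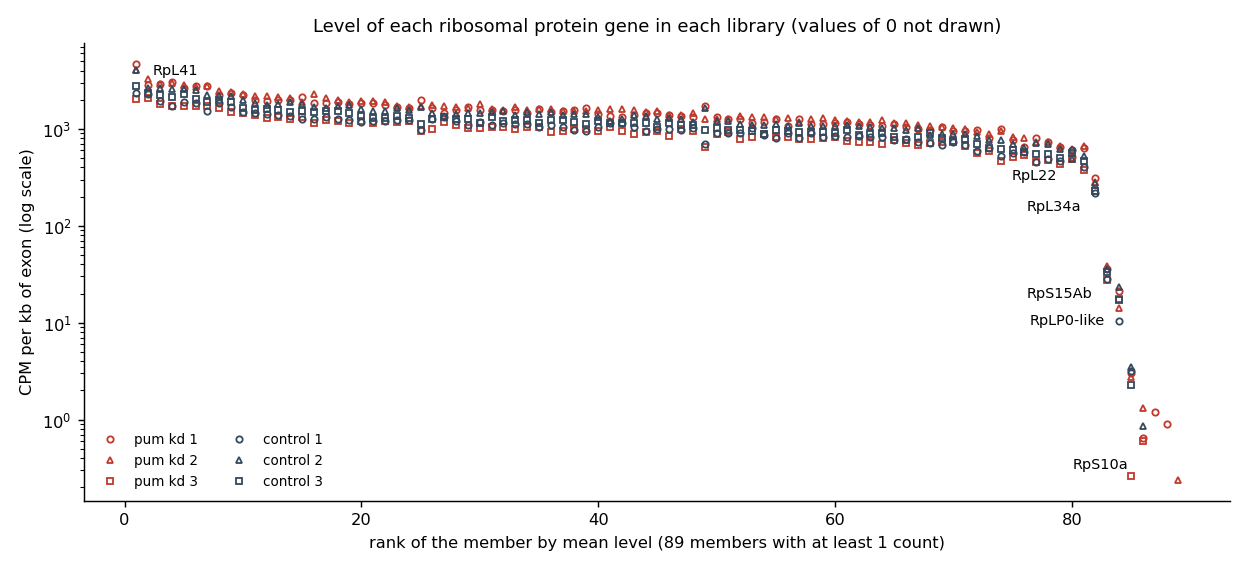
Level of each of the 89 ribosomal protein genes with at least 1 count, as CPM per kb of exon on a log scale, ordered by the mean over the 6 libraries. Red symbols are pum kd libraries and dark symbols control libraries. Levels fall slowly over the first 81 ranks and then steeply, and pum kd replicate 3 (squares) lies at or near the bottom for most genes.

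The 5 highest levels per kb belonged to RpL41, RpL27A, RpS18, RpL23 and RpLP2. RpL41, which encodes the shortest protein of the ribosome, had 4728, 4022 and 2050 CPM per kb in pum kd heads, against 2372, 4010 and 2798 in control heads. RpL27A had 2840, 3274 and 2095 CPM per kb in pum kd heads, against 2273, 2624 and 2350 in control heads. RpS18 had 2923, 2882 and 1789 CPM per kb in pum kd heads, against 1928, 2638 and 2225 in control heads. In all 3 genes pum kd replicates 1 and 2 were the highest libraries and pum kd replicate 3 was the lowest, so the pum kd values enclosed the control values. RpL23 repeated this order, with 3047, 2959 and 1703 CPM per kb in pum kd heads, against 1725, 2554 and 2126 in control heads.

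The lateral stalk of the 60S subunit, which recruits elongation factors, is made of RpLP0 and of several copies of RpLP1 and RpLP2. RpLP1 had 2783, 2750 and 1711 CPM per kb in pum kd heads, against 1543, 2217 and 1891 in control heads. RpLP2 had 2668, 2830 and 1730 CPM per kb in pum kd heads, against 1890, 2591 and 2296 in control heads. RpLP0 was lower than both in every library, at 1650, 1770 and 990 CPM per kb in pum kd heads, against 1261, 1471 and 1273 in control heads. Pum kd replicates 1 and 2 were the highest libraries for all 3 stalk genes, and the lowest was pum kd replicate 3 for RpLP0 and RpLP2 and control replicate 1 for RpLP1.

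Other genes with special products behaved alike. The ubiquitin fusion genes RpL40 and RpS27A, which each encode ubiquitin joined to a ribosomal protein, had 967, 992 and 605 CPM (RpL40) and 966, 989 and 713 CPM (RpS27A) in pum kd heads, against 626, 896 and 764 CPM (RpL40) and 738, 923 and 758 CPM (RpS27A) in control heads. RpS30, joined to a ubiquitin-like protein, had 1312, 1175 and 828 CPM in pum kd heads, against 784, 1116 and 958 CPM in control heads. The gene sta had 3122, 3194 and 1979 CPM in pum kd heads, against 2225, 2906 and 2550 CPM in control heads. Control values lay within the pum kd range for RpL40, RpS27A and sta, with pum kd replicate 3 the lowest library, while for RpS30 control replicate 1 was the lowest.

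No ribosomal protein gene was called different between pum kd and control heads. Among the 86 that passed the filter on low counts, 0 met an adjusted p under 0.05 together with a log2 fold change of 1 or more in either direction in edgeR's quasi-likelihood test, and DESeq2 also called 0. Over all 10696 genes tested, edgeR called 11, or 0.103%. At an unadjusted p under 0.05 the count was again 0 of 86, where 4.95% of all genes passed. The smallest adjusted p of any of them was 0.9927. Even so, 84 of the 86 had a fold change above 0 and 2 were below, with a median log2 fold change (pum kd over control) of 0.17, at 0.16 for the 36 tested 40S genes and 0.17 for the 50 tested 60S genes, beside -0.03 over all genes. The shared direction is not 84 separate observations, since these genes rise and fall together from library to library. In heads, fewer cells of a type and less RNA in each cell cannot be told apart.

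No ribosomal protein gene had all pum kd libraries above all control libraries or all below, where 5.36% of all genes had groups that did not overlap upwards and 4.95% downwards. On this scale, without the correction for gene length described below, this rested on a single library. Without pum kd replicate 3, 77 of the 86 lay above every control library, beside 11.9% of all genes, and 22 passed an unadjusted p under 0.05 in edgeR, beside 5.78% of all genes, with the median log2 fold change at 0.34. None was called then either, and the smallest adjusted p was 0.6885, at RpS3, which lines the mRNA entry channel, and at RpL38. Of the 9 that did not lie above, RpS14a, RpL22, RpL36A, RpL39, RpLP0-like, RpS15Ab and RpS10a are named here (after their values were seen). Leaving out control replicate 2 gave a median of 0.30, with 3 of the 86 genes (RpLP1, RpL29 and RpS10a) at an unadjusted p under 0.05 in edgeR, beside 12.8% of all genes. RpS10a alone then lay above every control library, beside 15.6% of all genes, so both counts were below the background. Over all 6 omissions the median stayed above 0, between 0.07 and 0.34.

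The libraries differed from each other far more than the genotypes did. Each gene's log2 CPM was set against its own mean over the 6 libraries, and the median of these deviations over the 86 genes was 0.25, 0.32 and -0.35 in pum kd replicates 1, 2 and 3, against -0.26, 0.13 and -0.10 in control replicates 1, 2 and 3. Over all genes tested the corresponding medians lay between -0.001 and 0.037, values that TMM scaling itself tends to keep small. In pum kd replicate 2, 85 of 86 genes were above their mean, and in pum kd replicate 3, 84 were below theirs. Within the pum kd group, the median gene was 1.59-fold higher in replicate 2 than in replicate 3 and 85 of 86 were higher. Pum kd replicate 2 was the highest library for 62 genes and pum kd replicate 3 the lowest for 71, while control replicate 1 was the lowest for the other 15. The subunits stayed close together, with medians of 0.29 for the 40S and 0.34 for the 60S genes in pum kd replicate 2, where they were furthest apart.

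**Figure D2:**
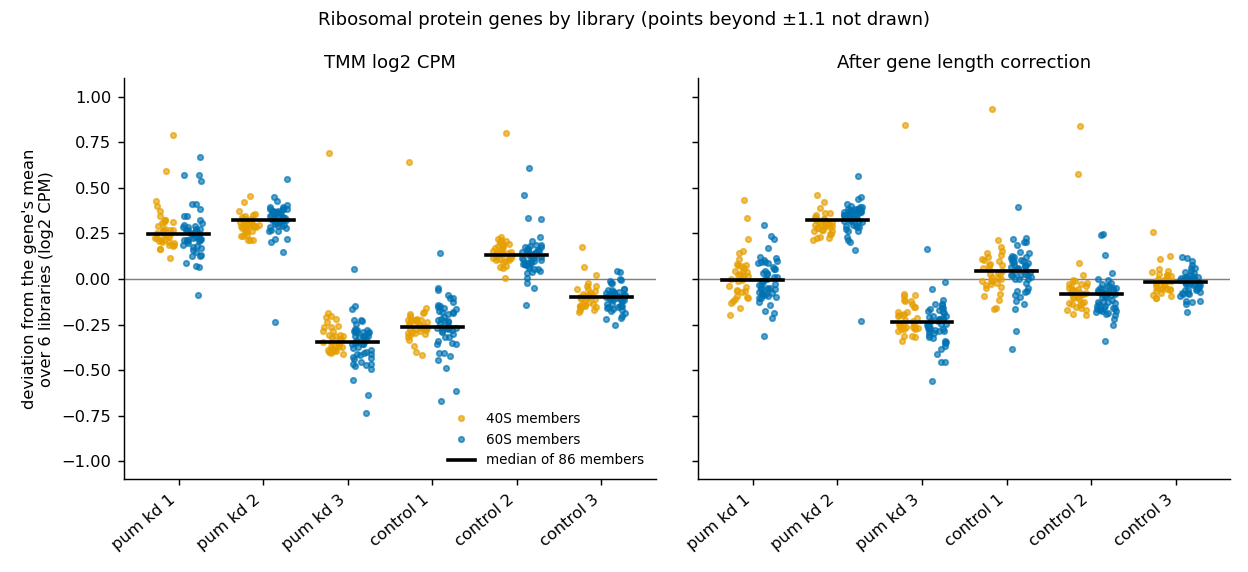
Deviation of each of the 86 tested ribosomal protein genes from its own mean over the 6 libraries (log2 CPM), for 40S genes (orange) and 60S genes (blue), with the median as a black bar. On the left, pum kd replicates 1 and 2 and control replicate 2 lie above 0 and the other libraries below. On the right, after correction for gene length, pum kd replicate 2 (median 0.32) and pum kd replicate 3 (median -0.24) still stand apart, and the other medians lie between -0.08 and 0.04. Points beyond 1.1 in either direction are not drawn.

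Gene length moved with these differences between libraries. The ribosomal protein genes are short, with a median of 922 bases of exon beside 2004 over all genes tested. Among other genes of 750 to 1000 bases (809 genes), the median deviation was 0.31, 0.01 and -0.08 in pum kd replicates 1, 2 and 3, against -0.30, 0.25 and -0.05 in control replicates 1, 2 and 3. Ribosomal protein genes of the same length range (24 genes) stood at 0.22, 0.31 and -0.35 in pum kd heads, against -0.27, 0.17 and -0.09 in control heads. Other short genes thus deviated to a like extent in pum kd replicate 1 and control replicates 1 and 2, and by much less in pum kd replicates 2 and 3. Genes over 4000 bases had the opposite sign to short genes in every library except pum kd replicate 2, where both lay near 0.

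**Figure D3:**
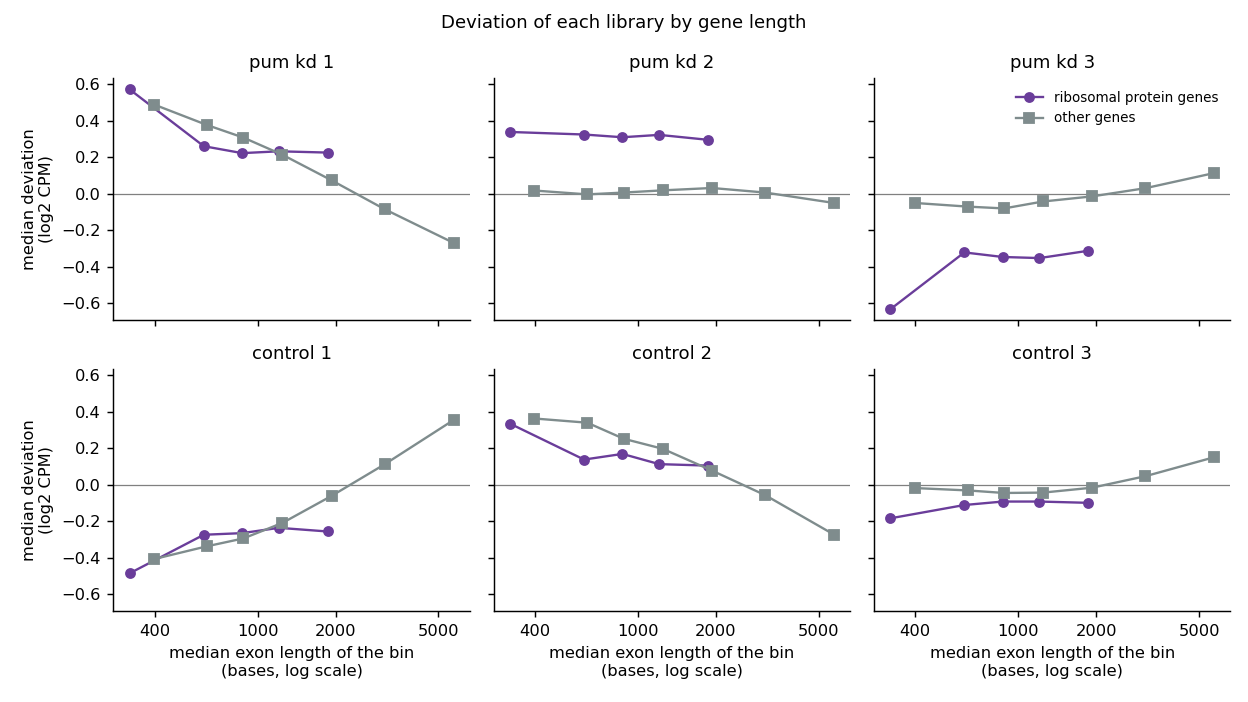
Median deviation of log2 CPM from the mean over 6 libraries, by exon length (log scale), for ribosomal protein genes (purple) and for other genes tested (grey), with pum kd libraries in the upper row and control libraries in the lower. The lines run close together in pum kd replicate 1 and in the control libraries at most lengths, while in pum kd replicates 2 and 3 the ribosomal protein genes lie about 0.3 above and below the other genes.

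A smooth curve of each gene's deviation on its exon length was then removed from each library. The median deviations of the ribosomal protein genes became -0.003, 0.32 and -0.24 in pum kd replicates 1, 2 and 3. In control replicates 1, 2 and 3 they became 0.04, -0.08 and -0.02. Pum kd replicate 2 was then the highest library for 82 of the 86 and pum kd replicate 3 the lowest for 68. Pum kd replicate 1 lay above control replicate 1 in 37 of the 86 genes, above control replicate 2 in 73 and above control replicate 3 in 50. On these values at most 37 genes could lie above every control library without pum kd replicate 3, against 77 before the correction. The median log2 fold change between genotypes was 0.07, with 73 genes above 0 and 13 below, and it was also 0.07 when the curve was fitted without the ribosomal protein genes. The correction did not turn the direction of the median, and it turned that of 11 of the 86 genes, all to below 0. The 3 control libraries came within 0.13 of one another after the correction, whereas pum kd replicates 2 and 3 differed by 0.56, or 1.48-fold, in the median gene.

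The division of the libraries that gave back the authors' batch-corrected values placed pum kd replicate 1 with control replicates 1 and 2, and pum kd replicates 2 and 3 with control replicate 3. Within the first batch the median difference (log2) between pum kd and control heads was 0.30, with 84 of the 86 genes higher. Within the second it was 0.09, with 73 higher. After the length correction the values were 0.01 with 47 higher in the first batch and 0.06 with 66 higher in the second. Each batch holds a single library of one genotype, so neither value has an error, and the largest gap, between pum kd replicates 2 and 3, lies within the second batch.

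The summed level of the photoreceptor markers (5 of 5 detected) was highest in pum kd replicates 1 and 2 and control replicate 2, the libraries in which the ribosomal protein genes were high, at 93540, 96630 and 79100 CPM in pum kd heads, against 82710, 92080 and 88280 CPM in control heads. The sum of the head fat body markers was highest in the same libraries. It was 32.9, 23.9 and 16.5 CPM in pum kd heads, against 18.5, 34.6 and 23.3 CPM in control heads. That of the neuron markers (4 of 4 detected) was 2684, 3261 and 3642 CPM in pum kd heads, against 4433, 2759 and 3801 CPM in control heads, and was lowest in pum kd replicate 1 and control replicate 2. The sums of the muscle and of the glia markers were also lowest in those libraries. The part of cell composition, gene length and batch in the level of the ribosomal protein genes was not tested.

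From library to library the ribosomal protein genes moved as a block. Across the 6 libraries the median Pearson correlation between the log2 CPM of 2 of them was 0.956 over 3655 pairs, and 78.9% of the pairs exceeded 0.9. Their median correlation with the 10610 other genes was -0.0003, a value that TMM scaling itself tends to keep small. It does not show that other genes moved independently, since other short genes shared part of the pattern. After the length correction the median among the ribosomal protein genes was 0.877. These correlations describe 6 points that share their libraries and their scaling. The median SD of log2 CPM over the libraries was 0.28 for the ribosomal protein genes and 0.32 for all genes. In any single library the typical ribosomal protein gene departed from the median of the group by at most 0.10 (log2), and 79 of the 86 departed by less than 0.3.

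The few that left the block, and RpL3, RpL4 and RpL5, were chosen here after their values were seen, apart from RpL22 and the paralogues. RpL22, whose insect protein carries a long tail related to histone H1, had the lowest median correlation with the others, at 0.16, before the length correction. After it the value was 0.44, and RpLP0-like (-0.65) and RpS10a (0.15) were lower. It had 562, 688 and 538 CPM in pum kd heads, against 661, 542 and 614 CPM in control heads. Unlike the other genes it was higher in control replicate 1 than in control replicate 2, and its log2 fold change of -0.02 (SE 0.18) was the only one below 0 among genes with many counts. RpL39, a very short protein near the exit tunnel, varied more widely than the group, with 491, 360 and 186 CPM in pum kd heads, against 202, 472 and 280 CPM in control heads. Its annotated exons of 288 bases are the shortest of the group, and its departure in control replicate 2 was 0.48, or 0.33 after the length correction. RpL3 and RpL5 departed little from the median of the group before the length correction, by at most 0.184 and 0.178 (log2). RpL4 departed slightly more, by at most 0.202. The median correlations of RpL3 and RpL5 with the others were 0.862 and 0.868, beside 0.881 for RpL39 and a lower 0.838 for RpL4. After the length correction these were 0.865 (RpL3), 0.59 (RpL5), 0.594 (RpL39) and 0.895 (RpL4). RpL3, at the catalytic centre of the 60S subunit, had 3032, 3592 and 2335 CPM in pum kd heads, against 2582, 2677 and 2588 CPM in control heads. RpL5, which carries a small ribosomal RNA into the 60S subunit, had 2523, 3097 and 2055 CPM in pum kd heads, against 2237, 2411 and 2218 CPM in control heads. RpL3 and RpL5 have long exons for this group, at 2231 and 3835 bases, whereas RpL4 has 1400. After the length correction the deviations of RpL5 from its own mean were 0.23, 0.38 and -0.28 in pum kd heads, against -0.28, 0.13 and -0.18 in control heads.

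The highest fold change among genes with many counts was that of RpLP1, with 2137, 2112 and 1314 CPM in pum kd heads, against 1185, 1703 and 1452 CPM in control heads. Its log2 fold change was 0.36 (SE 0.22, adjusted p = 0.9927 in edgeR), and the groups overlapped. RpL38 followed, with 1017, 954 and 476 CPM in pum kd heads, against 528, 771 and 626 CPM in control heads, and a log2 fold change of 0.35 (SE 0.28, adjusted p = 0.9927 in edgeR). After the length correction RpLP1 stood at 0.25 and RpL38 at 0.24. Pum kd replicate 3 lay below control replicate 3 in both genes.

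Paralogue pairs, taken as symbols that differ in a final a or b or that add "-like", numbered 12. In most of them nearly all counts fell on 1 gene. RpL7-like and RpL22-like had no count, beside 40085 to 69771 counts of RpL7 and 18710 to 25757 of RpL22 in single libraries, and a count of 0 allows them a share of at most 0.00748% and 0.016% of their pair in any library. RpL22-like encodes the form of RpL22 used in the testis germline. RpL10Aa had 7 counts in pum kd replicate 2 alone, RpS19b 20 in pum kd replicate 1 alone and RpS28a 12 in pum kd replicate 1 alone. Their partners RpL10Ab, RpS19a and RpS28b each had over 5000 counts in every library. RpS10a had 13, 30 and 13 counts in pum kd heads, against 0, 18 and 0 in control heads, beside over 5000 counts of RpS10b in every library. Its log2 fold change of 1.57 (SE 1.84, adjusted p = 0.9927 in edgeR) was the highest of the group and rests on these few reads. Reads without molecular identifiers are not independent molecules, so such intervals and limits cover counting error only. They do not cover errors in the assignment of reads to genes.

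The 6 pairs with counts on both genes in every library were tested, with an exact two-sided permutation test of the share over the libraries, which with 3 against 3 cannot give a p under 0.10, and with adjustment over the 6 pairs. RpL24-like, whose yeast counterpart Rlp24 is an assembly factor replaced by Rpl24 as the 60S subunit matures, held 26.5%, 24.6% and 24.7% of the counts of its pair in pum kd heads, against 22.7%, 23.9% and 24.1% in control heads. It was the only pair of the 6 in which the groups did not overlap, with a difference of 1.71 percentage points (25.3% ± 1.06 in pum kd heads and 23.6% ± 0.753 in control heads, SD, n = 3 each). The exact permutation p was 0.10, the smallest possible, and 0.60 after adjustment over the 6 pairs. RpL24-like has 773 bases of exon and RpL24 1265. After the length correction the deviation (log2) of RpL24-like minus that of RpL24 was 0.04, 0.03 and 0.08 in pum kd heads. In control heads it was -0.003, -0.14 and -0.01. The groups again did not overlap, but on this scale neither did those of another of the 6 pairs. The log2 fold changes of RpL24-like and RpL24 were 0.26 and 0.12, or 0.14 and 0.04 after the length correction.

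**Figure D4:**
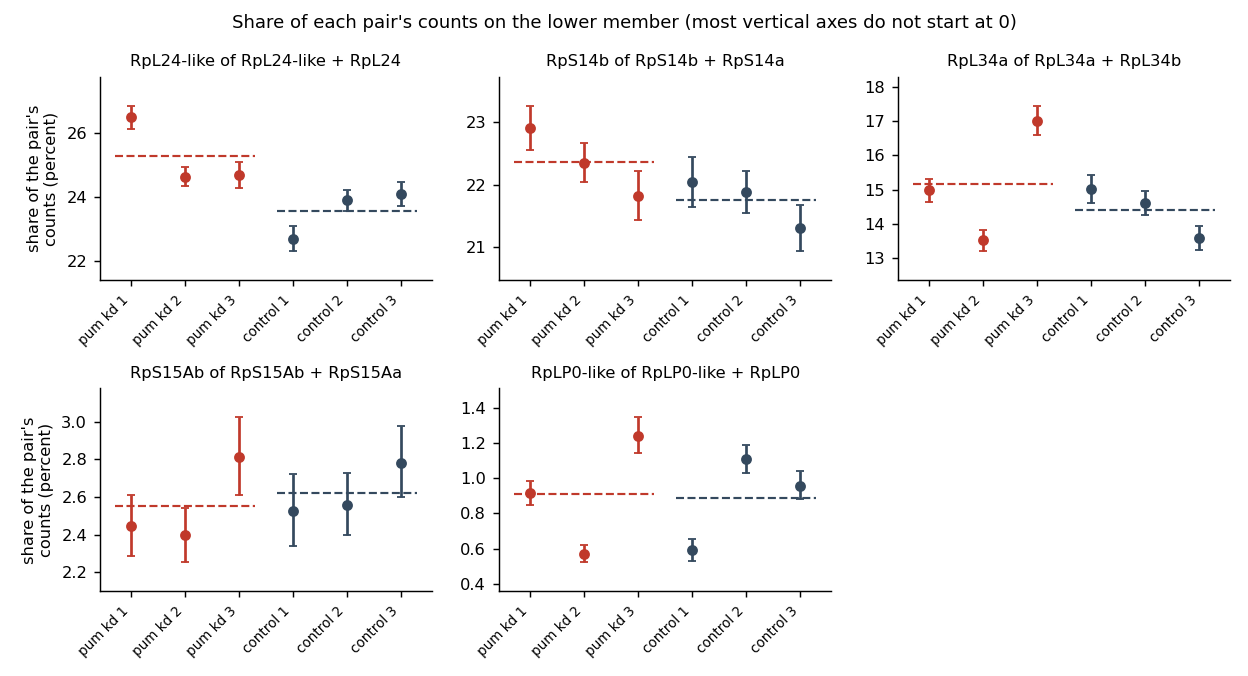
Share of the counts of a pair that fell on its lower member (percent), for 5 of the 6 pairs with counts on both genes in every library. Points are libraries, pum kd in red and control in dark grey, bars are exact binomial 95% intervals (counting error only) and dashed lines are group means. Of these, only RpL24-like has groups that do not overlap, and RpLP0-like in pum kd replicate 2 and control replicate 1 lies below the other libraries.

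The shares of the other 5 pairs overlapped between the groups, and 4 of these pairs are given here. RpL34a held 15.0%, 13.5% and 17% of its pair with RpL34b in pum kd heads, against 15.0%, 14.6% and 13.6% in control heads (exact permutation p = 0.70). RpS14b held 22.9%, 22.4% and 21.8% of its pair in pum kd heads, against 22.0%, 21.9% and 21.3% in control heads (exact permutation p = 0.30). RpS14a and RpS14b are near-identical neighbours on the X, at 7933742 to 7934677 and 7934898 to 7935792 (dm6), so the division of reads between them is uncertain. RpS15Ab held 2.45%, 2.40% and 2.81% of its pair with RpS15Aa in pum kd heads, against 2.53%, 2.56% and 2.78% in control heads (exact permutation p = 0.60). Its log2 fold change was 0.06 (SE 0.20), and was -0.06 after the length correction. RpLP0-like, the counterpart of the yeast assembly factor Mrt4 that is exchanged for RpLP0, had 20.2, 13.5 and 16.5 CPM in pum kd heads, against 9.94, 21.9 and 16.3 CPM in control heads. Its share of the pair ran from 0.57% in pum kd replicate 2 to 1.24% in pum kd replicate 3, against 0.59% in control replicate 1 to 1.11% in control replicate 2 (exact permutation p = 1.00). Adjusted over the 6 pairs, the p-values of those 4 lay between 0.60 and 1.00. After ComBat-seq by the authors' batches the groups of RpS14b and RpS15Ab did not overlap either. The differences were 0.91 and -0.18 percentage points (exact permutation p = 0.10 for each, not adjusted). Groups that did not overlap (CPM) also became more common over all genes after this step. They rose from 573 upwards and 529 downwards of 10696 genes to 1095 and 767 of 10358. No conclusion is therefore drawn from those p-values.

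Other genes of the translation machinery were compared by lists chosen with earlier results of these data known. None of the lists held a called gene. Of 7 elongation factor genes, 6 had a fold change above 0, with a median of 0.19, and their median deviation was 0.02, 0.39 and -0.18 in pum kd heads, against -0.04, -0.04 and -0.14 in control heads. They thus shared the high value of pum kd replicate 2 with the ribosomal protein genes and lacked the low value of control replicate 1. The elongation factor eEF1alpha1, which brings aminoacyl-tRNA to the ribosome, had 4353, 6167 and 3939 CPM in pum kd heads, against 4490, 4204 and 3945 CPM in control heads. The translocation factor eEF2 had 2343, 3380 and 2291 CPM in pum kd heads, against 2880, 2195 and 2375 CPM in control heads. In both, pum kd replicate 2 was the highest library and the remaining values of the groups overlapped. The extremes of the list were eEF1gamma at a log2 fold change of 0.32 (SE 0.20) and eEF1alpha2 at -0.06 (SE 0.17).

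Among 29 initiation factor genes, 21 were above 0 and 8 below, with a median of 0.08, and eIF3k was the highest at 0.24 (SE 0.19). The lowest, eIF5 at -0.45 (SE 1.48), had at most 1.92 CPM in any library. Of 44 ribosome biogenesis genes, 22 were above 0 and 22 below, with a median of 0.003. The highest was nclb, which promotes ribosomal RNA synthesis, with 38.0, 30.5 and 24.96 CPM in pum kd heads, against 19.7, 22.7 and 15.9 CPM in control heads. Its groups did not overlap, but its log2 fold change of 0.68 (SE 0.22) did not pass, with an adjusted p of 0.6411 in edgeR. The lowest was Rrp40, a subunit of the RNA exosome, at -0.67 (SE 0.53), with at most 7.59 CPM in any library. Its value was -0.33 after ComBat-seq, -0.34 with the authors' batches as a term, -0.33 without pum kd replicate 3 and -0.15 without control replicate 2.

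The 71 tested genes of the mitochondrial ribosome, short like the cytosolic ones at a median of 783 bases, were divided into 38 above 0 and 33 below, with a median of 0.03. Their median deviation was 0.27, -0.05 and -0.18 in pum kd heads, against -0.33, 0.32 and -0.01 in control heads, and between -0.04 and 0.08 in every library after the length correction. The deviations of the cytosolic genes in pum kd replicates 2 and 3 that remained after the correction were therefore not found in the mitochondrial list, where the corresponding medians were both -0.04. The highest of this list was mRpL55 at a log2 fold change of 0.39 (SE 0.23) and the lowest mRpS18B at -0.53 (SE 0.23, adjusted p = 0.9709 in edgeR).

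**Figure D5:**
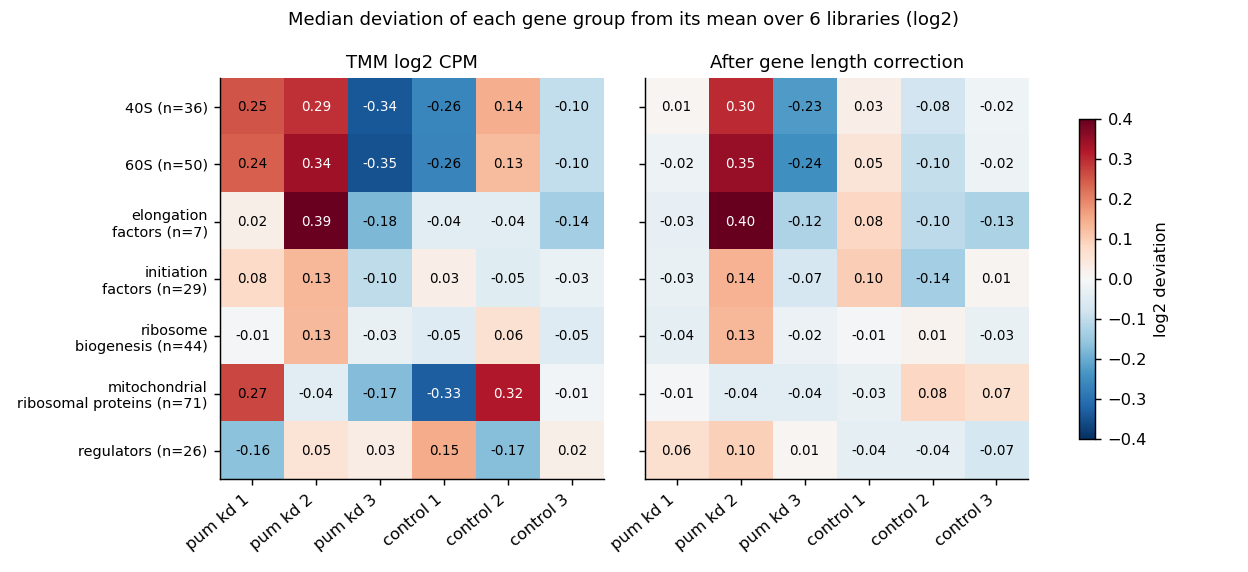
Median deviation of log2 CPM from the mean over 6 libraries for the tested 40S and 60S genes and 5 other lists, with pum kd libraries left of control libraries, before (left) and after (right) the correction for gene length. After the correction pum kd replicate 2 stays at 0.30 or higher for the 40S genes, the 60S genes and the elongation factors, and pum kd replicate 3 at -0.23 and -0.24 for the 2 subunits. The mitochondrial list lies between -0.04 and 0.08.

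Of 26 genes that regulate ribosomal protein genes or respond to their loss, 13 were above 0 and 13 below, with a median of 0.002. Xrp1, a transcription factor induced when a copy of a ribosomal protein gene is lost, had 553, 561 and 665 CPM in pum kd heads, against 650, 551 and 606 CPM in control heads. Its partner Irbp18 had 29.2, 31.5 and 21.6 CPM in pum kd heads, against 26.0, 32.4 and 26.2 CPM in control heads. Thor, the repressor of cap-dependent translation that acts below TOR, had 356, 204 and 257 CPM in pum kd heads, against 151, 378 and 257 CPM in control heads. M1BP, which binds the promoters of many ribosomal protein genes, had 34.9, 28.6 and 29.7 CPM in pum kd heads, against 27.7, 35.0 and 27.5 CPM in control heads. All 4 overlapped between the groups. Rheb, the activator of TOR, was the highest of the list at 0.35 (SE 0.17), with 96.4, 79.4 and 86.2 CPM in pum kd heads, against 58.1, 79.2 and 68.1 CPM in control heads. The kinase gene S6kII was the lowest at -0.42 (SE 0.21). The genes of this list are long, with a median of 4479 bases of exon. After the length correction Rheb stood at 0.28, S6kII at -0.25 and the median of the list at 0.08. Rack1, which encodes a protein of the 40S head but lies outside the symbol rule, had 2312, 2338 and 1531 CPM in pum kd heads, against 1705, 1993 and 1780 CPM in control heads, with pum kd replicates 1 and 2 highest and pum kd replicate 3 lowest as in the ribosomal protein genes (named after its values were seen).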

How the data were processed

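Poly-A RNA of 6 head libraries was sequenced as stranded libraries. The authors checked reads with FastQC 0.12.1, trimmed them with Trimmomatic 0.39 and aligned them to dm6 with STAR 2.7.11b, per the submitters' processing notes. The strand setting and annotation of the counting are not given in the sources used here. The authors deposited raw counts per gene. Their second deposited table holds a normalized signal (counts after ComBat-seq divided by size factors), DESeq2's log2 fold changes, its Wald statistic (a score) and its p-values. Those comparison columns were not used, and the signal served to find the authors' batches: of 25 divisions of the libraries tried in ComBat-seq, 1 gave back 100% of its values and the next best 1.617%.

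Rows that name no gene, 11.5% to 14.2% of the counts of a library, were left out. Exon lengths came from Ensembl's dm6 annotation, in which 17710 of the 17807 gene identifiers were found. Of the 93 symbols, 85 came from the deposited table and 8 from the annotation. The test was edgeR's quasi-likelihood test (version 4.0.16, R 4.3.3) after filterByExpr and TMM, with p-values adjusted by Benjamini and Hochberg over all genes tested. A call needed an adjusted p below 0.05 and a log2 fold change of 1 or more in either direction. DESeq2 1.42.0 and sva 3.50.0 gave alternatives. For deviations, a prior count of 2 entered the log2 CPM. The length correction fitted, in each library, a loess curve (span 0.3) of the deviation of each gene on log exon length. Deviations were from the gene's own mean log2 CPM over the libraries, and the curve was removed through offsets. Paralogue shares were tested in scipy 1.17.1, and the limit that a count of 0 allows is 3 counts of the total. The fits were tested on simulated data.

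No 2 libraries of a genotype agreed within sampling noise (the lowest chi-square divided by its degrees of freedom was 45.8). Same-numbered libraries did not deviate together (r of -0.087, -0.021 and 0.014), so the main fit has no replicate block. Genes described by library were the highest and lowest by level and by fold change, all paralogue pairs and a fixed set of special products. From each list the highest and lowest fold change and fixed regulators were named. The members, lists and tests were chosen with earlier results of these data known. Promoter and protein sequences were not analysed here, and a few genes, among them 1 of the paralogue pairs, are not reported here.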

Additional observations from a re-analysis of the deposited data

How the results depend on the processing

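No ribosomal protein gene was called under any alternative: other normalizations (RLE size factors, total counts), other filters, DESeq2, a robust dispersion, no minimum fold change, the authors' batches as a term or through ComBat-seq, the length correction, and each library left out. The median log2 fold change of the group stayed above 0 in all of them, at 0.15 with the replicate block, 0.05 with the block and the length correction, 0.21 with the batches as a term and 0.25 after ComBat-seq, and between 0.07 and 0.34 with a library left out. Over all genes, 11 of 10696 were called in the main comparison, 64 with DESeq2, and 73 of 13234 with no filter. The counts were 29 of 10358 after ComBat-seq, 26 of 10696 with the length correction, and 27 with the block and the length correction. Leaving a library out gave from 1 of 11117 (without control replicate 3) to 30 of 11142 (without control replicate 2). At such low shares, 0 of 86 does not set the ribosomal protein genes apart from other genes. With a library left out and no length correction, the number of ribosomal protein genes whose groups did not overlap ranged from 0 to 77. The 77 arose without pum kd replicate 3.

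Among paralogue shares, none of which passed the test, the difference of RpLP0-like (0.02 percentage points) was -0.0414 after ComBat-seq, and with a library left out ranged from -0.143 to 0.192. That of RpL34a (0.76) ranged from -0.155 to 1.59 and that of RpS15Ab (-0.07) from -0.201 to 0.00995 with a library left out. After ComBat-seq RpS14b (0.62) was 0.911 and RpS15Ab -0.182, each at the smallest possible exact permutation p of 0.10. Groups that did not overlap were also more frequent over all genes after ComBat-seq, so no conclusion is drawn from these p-values. The replicate block could not move the 6 differences, since the mean of matched differences equals the difference of the means. The fold changes of RpL22, RpS15Ab, eEF1alpha2 and eIF5, none of them called, changed sign under some alternatives. RpL22 stood at 0.030 with no filter. RpS15Ab stood at -0.057 with the length correction, -0.064 with the replicate block added and -0.053 with the curve fitted without the ribosomal protein genes (chosen after seeing the data). With a library left out, RpL22 ranged from -0.11 to 0.061, RpS15Ab from -0.038 to 0.18, eEF1alpha2 from -0.15 to 0.048 and eIF5 from -2.70 to 0.14. The cause was not tested. With 3 libraries a genotype and a 1.46-fold spread of the group's share, differences of the size of the median could not be separated from the spread between libraries, and depth was not the limit except for RpS10a and other genes with few counts.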
